A study of Mus musculus with 15 samples.

Results

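Matrix metalloproteases (MMPs), the related ADAM and ADAMTS proteases and their inhibitors, the TIMPs, were examined in femoral RNA of mice from a study of spaceflight and bone injury. The members were chosen by name, as the genes with an Mmp, Adam, Adamts or Timp symbol followed by a number that have a probe on the array, without the neutrophil enzymes Mmp8 and Mmp9. There were 77 such genes among 21154 genes with a matched symbol, carried by 103 probes, and each was read at its brightest probe. Male C57BL/6J mice labelled as 9-week old contributed 15 arrays, 1 per animal. G-Sham (n = 4) were ground mice and FLT-Sham (n = 4) were mice flown to the International Space Station, both labelled as unoperated sham controls. G-Surgery (n = 4) and FLT-Surgery (n = 3) were ground and flown mice that had a segmental bone defect (SBD) cut in the femur shortly before launch and filled with a graft scaffold, collagen sponge and pin. Ground mice lived in the same hardware on a delayed schedule. Per the study the labelled age is about that at surgery. Mice were killed some weeks later, the flown mice on the station. All 15 samples are labelled callus, although per the study's methods the sham samples came from the matching shaft region of an intact femur. The femur RNA carried Cy5 and a commercial reference pool from 11 mouse cell lines carried Cy3 on every array, with no dye swap. A value below is the log2 ratio of Cy5 to Cy3, so that it compares a gene with itself across arrays and not with another gene. In RNA of a whole tissue piece, fewer cells of a type and less RNA per cell cannot be told apart.

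MMPs are secreted or membrane-bound zinc proteases that cut collagens, proteoglycans and other matrix proteins. They are made as inactive precursors and are held in check by TIMPs, small secreted proteins that bind the active site. In a healing fracture the collagenase Mmp13 and the membrane-type enzyme Mmp14 are known for opening cartilage and bone matrix to vessels and new bone. ADAMs are membrane proteases that mostly shed the outer part of other membrane proteins, with Adam10 and Adam17 the best known, and many further ADAMs are made in the testis. ADAMTS enzymes are secreted, and cut proteoglycans or trim procollagens.

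Sequences are shown for the 3 members that passed the cut-off for differential expression given below (Timp2, Timp3 and Adam10) and for Mmp3 and Mmp13, which were both above background on the same 2 operated arrays. Each is the 250 bases before the annotated start, 5′ to 3′ on the gene's strand, from RefSeq on GRCm38.p6, which had a window for 48 of the 77 members. Capitals mark letter matches to motifs searched on both strands. The AP-1 element was spelled TGANTCA, in which N is any base. The TATA box, a core promoter element that positions the polymerase, was spelled TATAAA. The GC box, the usual element of promoters active in many tissues, was spelled GGGCGG, and a match on the other strand shows the reverse complement.
Mmp3, chr9:7445572-7445821, plus strand: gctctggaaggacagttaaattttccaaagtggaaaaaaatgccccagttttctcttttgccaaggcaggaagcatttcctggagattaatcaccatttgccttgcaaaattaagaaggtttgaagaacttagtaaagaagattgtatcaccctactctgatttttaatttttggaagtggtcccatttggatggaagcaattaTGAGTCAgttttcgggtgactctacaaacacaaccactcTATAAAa
Mmp13, chr9:7272264-7272513, plus strand: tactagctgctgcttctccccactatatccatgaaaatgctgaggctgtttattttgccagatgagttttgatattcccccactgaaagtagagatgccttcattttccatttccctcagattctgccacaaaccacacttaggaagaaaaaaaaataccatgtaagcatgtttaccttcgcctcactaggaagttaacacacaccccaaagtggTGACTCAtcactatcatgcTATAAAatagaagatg
Timp2, chr11:118355412-118355661, minus strand: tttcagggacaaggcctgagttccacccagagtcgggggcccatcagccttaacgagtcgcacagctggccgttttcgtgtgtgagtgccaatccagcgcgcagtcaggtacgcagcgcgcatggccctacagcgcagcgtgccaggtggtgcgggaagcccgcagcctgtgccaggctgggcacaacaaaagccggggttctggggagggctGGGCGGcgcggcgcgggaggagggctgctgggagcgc
Timp3, chr10:86300162-86300411, plus strand: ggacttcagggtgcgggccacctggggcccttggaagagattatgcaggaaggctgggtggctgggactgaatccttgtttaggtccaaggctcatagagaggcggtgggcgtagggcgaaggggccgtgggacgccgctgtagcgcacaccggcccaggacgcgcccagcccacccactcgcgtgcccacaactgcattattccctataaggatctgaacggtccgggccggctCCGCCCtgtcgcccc
Adam10, chr9:70678732-70678981, plus strand: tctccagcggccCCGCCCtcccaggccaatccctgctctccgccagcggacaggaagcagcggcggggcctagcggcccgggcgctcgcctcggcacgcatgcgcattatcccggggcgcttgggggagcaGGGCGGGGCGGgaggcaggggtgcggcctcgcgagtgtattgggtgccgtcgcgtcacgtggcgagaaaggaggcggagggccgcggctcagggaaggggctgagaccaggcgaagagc
The windows of Mmp3 and Mmp13 each held 1 AP-1 element, starting 46 and 35 bases before the gene's start, and 1 TATA box, starting 7 and 16 bases before it, and no GC box. The windows of Timp2, Timp3 and Adam10 held no AP-1 element and no TATA box, and 1, 1 and 3 GC boxes, 2 of those of Adam10 overlapping. Of 32851 promoter windows of this length, 6.75% held an AP-1 element, 12.4% a TATA box and 32.7% a GC box. These are letter matches and no record of binding.

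The tissue shown by the arrays was mixed. Of 8 skeletal muscle markers 6 were above background on all 15 arrays, and the bone matrix gene Col1a1 was too. Of the other osteoblast and osteocyte genes, Ibsp was above background on 14 arrays, Bglap on 8 and Alpl on 7. Sp7, Dmp1, Sost and Phex were above background on none. Probes with a Cy5 signal well above background numbered 12493 to 21461 of 55681 per array. Arrays of the same group correlated with r between 0.657 and 0.936. FLT-Sham replicate 8 (r of 0.657 to 0.804 with its group) and FLT-Surgery replicate 1 (r = 0.818 with both others of its group) stood apart, and calls of members that change without either are given. The arrays lay on 3 slides, with G-Sham replicate 4 alone on 1 of them. The cut-off for differential expression was that of the study, a fold change of at least 2 with an unadjusted p of at most 0.01 (limma), and Benjamini-Hochberg adjusted values are given beside it. With all arrays weighted alike no member reached an adjusted p of 0.05 in any comparison. Of all probes 2 did in G-Surgery vs. G-Sham (0.0113%), 16 in FLT-Surgery vs. FLT-Sham (0.0836%) and 0 in the others and the interaction (0%). With array weights some members did in the interaction and every comparison but G-Surgery vs. G-Sham. Up to 48.5% of all probes passed the cut-off in those fits. The deposited log ratio already holds an intensity-dependent dye normalization and was used as it stands. A further loess within arrays moved the median difference of all probes tested from 0.24 to -0.13 in FLT-Sham vs. G-Sham, from -0.20 to 0.29 in FLT-Surgery vs. G-Surgery, from 0.14 to -0.08 in G-Surgery vs. G-Sham and from -0.28 to 0.35 in FLT-Surgery vs. FLT-Sham. It moved the share of higher genes among all probes past the cut-off from 89.6% to 65.2%, from 33.3% to 94.8%, from 80.3% to 56.9% and from 6.37% to 51.7% in the same order, so that member differences are read against those medians.

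Few members of the family were abundant in these femora. Of the 77 members, 10 were above background on all 15 arrays, 29 on at least 3 arrays, 19 on 1 or 2 arrays and 29 on none. This is 13% on all arrays and 37.7% on none, beside 21.3% and 31.5% of all genes at their brightest probes. The members on every array were the inhibitors Timp1 and Timp2, the MMPs Mmp11 (stromelysin 3) and Mmp17 (a membrane-type enzyme held by a lipid anchor), the ADAMs Adam11, Adam12, Adam15 and Adam33, and the procollagen N-proteinases Adamts2 and Adamts14. Procollagen N-proteinases cut the end piece off fibrillar procollagen before it forms fibrils. By role, all 4 TIMPs were above background on at least 1 array, as were 8 of 9 ADAMs known as active proteases outside the reproductive tract, 5 of 6 membrane-type MMPs and 4 of 7 proteoglycan-cleaving ADAMTS, against 10 of 22 of the ADAMs that are mainly reproductive or of other kinds. The members on no array included the macrophage elastase Mmp12, the membrane-type Mmp16, Mmp19, Adam28, and the proteoglycan-cleaving Adamts4 and Adamts15. Several further named members were above background on 1 array alone. The sheddase Adam17 was so on G-Sham replicate 5, Mmp15 on FLT-Sham replicate 4, the aggrecanase Adamts5 on G-Sham replicate 5 and Adamts12 on FLT-Sham replicate 4. Adamts9 was above background on 2 FLT-Sham arrays, Mmp28 on 1 G-Sham and 1 FLT-Sham array, and Adam23 likewise on 1 of each. For members below background on most arrays the data set a bound on detection and do not show absence.

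Fewer members were above background in operated flown femora than in operated ground femora. Members above background numbered 12, 21, 23 and 20 on the G-Sham arrays, 26, 23, 16 and 24 on the FLT-Sham arrays, 31, 24, 21 and 21 on the G-Surgery arrays, and 20, 14 and 15 on the FLT-Surgery arrays. The median was 15 in FLT-Surgery against 22.5 in G-Surgery, and all 3 FLT-Surgery arrays lay below the lowest G-Surgery array. The share of all genes above background at their brightest probe ran from 29.4% to 35.5% on FLT-Surgery arrays and from 35.9% to 47.6% on G-Surgery arrays. These groups too did not overlap. The array with the fewest members was G-Sham replicate 1. On 15 of 15 arrays the share of members was below that of all genes.

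**Figure D1:**
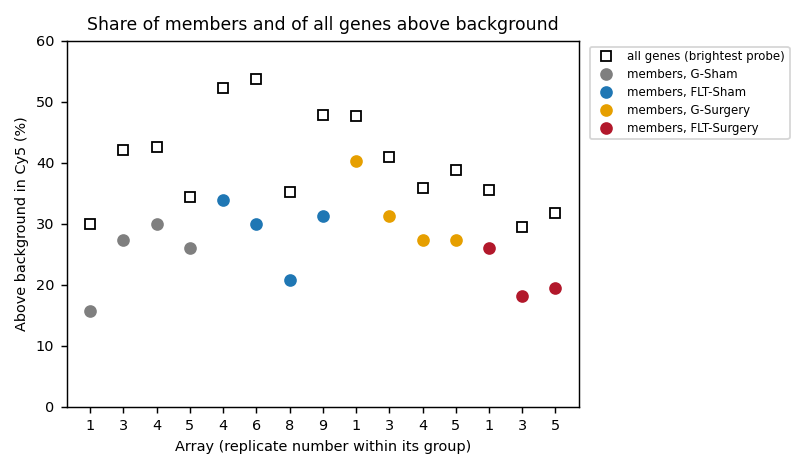
Share of the 77 members (filled circles, coloured by group) and of all genes at their brightest probe (open squares) above background in Cy5, in percent, on each of the 15 arrays. The members lie below all genes on every array, and the FLT-Surgery arrays lie at 18.2% to 26% of members.

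**Figure D2:**
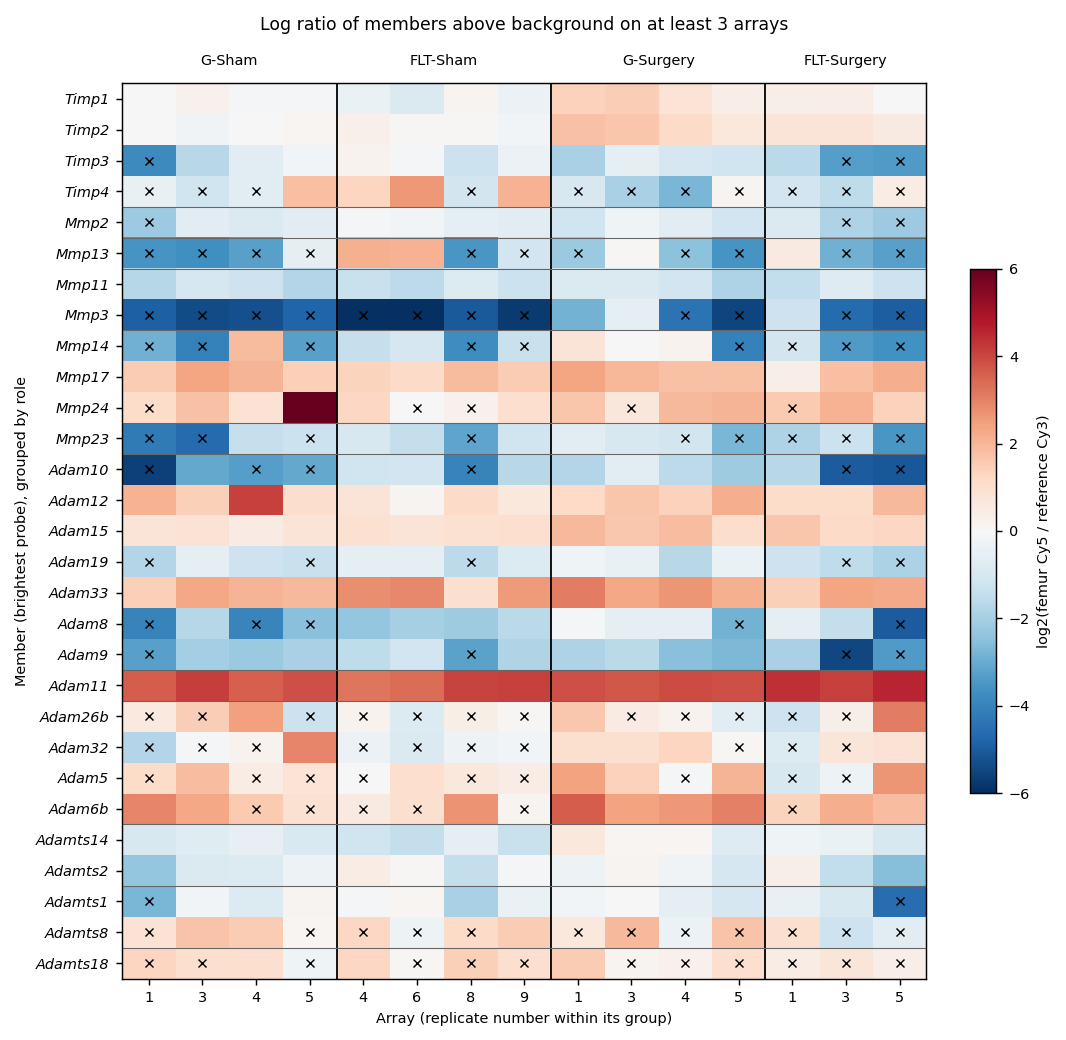
Log2 ratio of Cy5 (femur) to Cy3 (reference) of the 29 members above background on at least 3 arrays, by array, in columns ordered by group and rows ordered by role. Colour runs from -6 to 6 and crosses mark values not well above background in Cy5. Timp1 and Timp2 are higher on every G-Surgery array than on every sham array, while Timp1 on FLT-Surgery replicate 5 lies within the sham range. Mmp24 on G-Sham replicate 5, at 7.38, lies beyond the scale.

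Timp2 and Adam10 were higher in operated than in unoperated ground femora. Between G-Surgery and G-Sham, 21 of 23 members tested were higher in G-Surgery, beside 59.9% of all probes, with a median log2 difference of 0.52 beside 0.14 over all probes, and with the further loess 18 of 23 were above 0, beside 43.6%, with a median of 0.21 beside -0.08. Both rose past the cut-off, which is 2 of 23 members beside 2.59% of all probes (2.08% in this direction). Timp2 is a broad MMP inhibitor that also takes part in the activation of the gelatinase Mmp2 on the cell surface. The log2 ratio of Timp2 was -0.01, -0.21, -0.03 and 0.14 on the G-Sham arrays and 1.76, 1.65, 1.13 and 0.62 on the G-Surgery arrays. Every operated array lay above every sham array. The difference was 1.32 (SE 0.30) on the log2 scale, a 2.49-fold rise (limma, adjusted p = 0.258), and it passed the cut-off with each of the 8 arrays left out. Within the slides that held both groups it was 1.38 and 1.58. A second, dimmer probe of Timp2 did not show this, with a mean of -1.82 in G-Sham and -1.95 in G-Surgery and a difference of -0.12 (SE 0.30, limma, adjusted p = 0.888), so that the rise rests on 1 of 2 probes of the gene, and with the mean of its probes Timp2 was not past the cut-off.

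Timp1, the inhibitor best known as induced in injured and inflamed tissue, had ratios of 0.02, 0.28, -0.14 and -0.06 in G-Sham and 1.37, 1.48, 0.80 and 0.39 in G-Surgery. The groups did not overlap. The difference of 0.99 (SE 0.30, limma, adjusted p = 0.352) was just outside the cut-off on both fold and unadjusted p. Adam10, the sheddase that cuts Notch receptors and cadherins, had ratios of -5.62, -3.07, -3.32 and -3.06 in G-Sham and -1.77, -0.64, -1.56 and -2.12 in G-Surgery. It was above background on 1 of 4 G-Sham arrays and on 4 of 4 G-Surgery arrays, and the arrays did not overlap. The difference was 2.25 on the log2 scale (SE 0.61, limma, adjusted p = 0.32), set against 3 G-Sham values that were not well above background, so that its size is uncertain. It was 1.63 (SE 0.37, limma, adjusted p = 0.163) without G-Sham replicate 1, and it was not past the cut-off without G-Surgery replicate 1, 3 or 4 or with slide as a block (2.41). With another background correction (normexp with loess) the difference was 0.33, under a fold of 2. Adam15, an ADAM known from vessel walls and cartilage, ran from 0.49 to 0.88 in G-Sham and was 1.94, 1.63, 1.85 and 1.05 in G-Surgery. It also showed no overlap, with a difference of 0.89 (SE 0.27, limma, adjusted p = 0.349) that was under a fold of 2. In all 4 of 23 members had every G-Surgery array above every G-Sham array, beside 5.31% of all probes.

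Other proteases spread more widely. Adam8, made by leukocytes and osteoclasts, was -4.03, -1.69, -3.94 and -2.50 in G-Sham and -0.10, -0.55, -0.54 and -2.84 in G-Surgery, a difference of 2.03 (SE 0.73, limma, adjusted p = 0.381). The groups overlapped through G-Surgery replicate 5. Adamts14 differed by 0.80 (SE 0.32, limma, adjusted p = 0.432), with 3 G-Surgery arrays between 0.11 and 0.64 and replicate 5 at -0.76 among the G-Sham arrays, which ran from -0.94 to -0.51. Mmp23 differed by 1.52 (SE 0.87) and Mmp14 by 1.31 (SE 1.48). Mmp14 activates Mmp2 and itself cuts collagen. Its ratio was 0.76, -0.01 and 0.22 on 3 G-Surgery arrays and -4.07 on replicate 5, against -2.90, -4.07 and -3.27 on 3 G-Sham arrays and 1.91 on replicate 4. Without G-Surgery replicate 5, 6 of 23 members were past the cut-off, beside 3.92% of all probes, namely Timp1, Timp2, Adam8, Adam10, Adam15 and Adamts14. Only Adam12 and Mmp24 were lower in G-Surgery, by -0.57 (SE 0.63) and -1.20 (SE 1.34), and without G-Sham replicate 4 and replicate 5 respectively these came to 0.08 and 0.34. Cell type markers that moved with these members were those of chondrocytes (4 of 4 tested higher, median 2.46, mean log2 ratio over the list -0.20 to 0.93 on G-Sham and 1.74 to 3.48 on G-Surgery arrays), osteoclasts (3 of 3 higher, median 1.87, -0.87 to 1.21 and 1.07 to 2.11), fibroblasts (4 of 4 higher, median 1.51, -2.84 to 0.29 and -0.49 to 1.62) and macrophages (3 of 3 higher, median 0.82, -0.85 to -0.37 and 0.10 to 0.52). Both endothelial markers tested were higher (median 0.78), and 3 of 3 erythroid markers were lower (median -1.25). The osteoclast marker Calcr and the chondrocyte genes Col10a1 and Matn3 were above background on no array. Their part in the result was not tested.

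**Figure D3:**
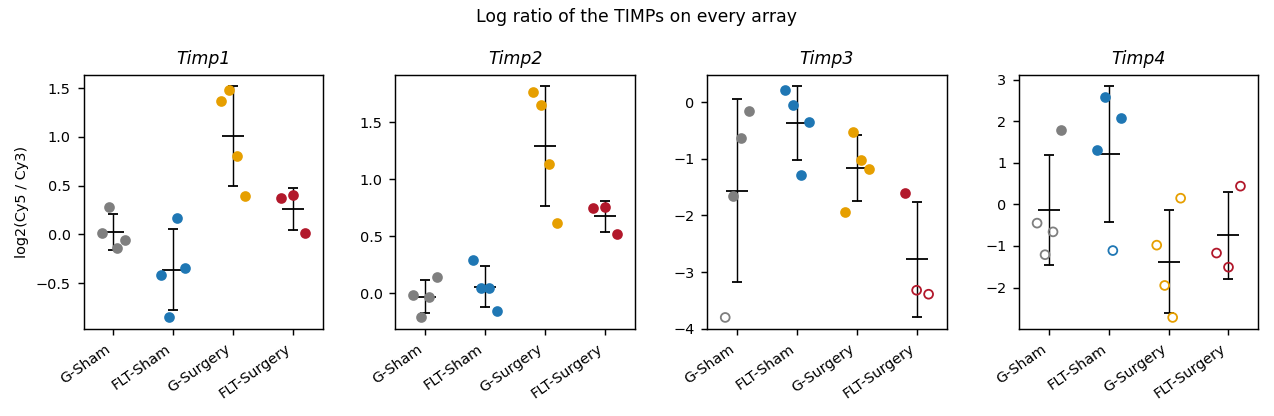
Log2 ratio of the 4 TIMPs on every array by group, filled where above background in Cy5 and open where not, with the mean and SD of each group in black. Timp1 and Timp2 lie higher on all G-Surgery arrays than on all G-Sham arrays, and Timp3 is lowest on FLT-Surgery replicates 3 and 5 and G-Sham replicate 1.

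In flown mice Timp3 was lower in operated than in unoperated femora, and the members as a whole lay near the background of all probes. Of 22 members tested between FLT-Surgery and FLT-Sham, 9 were above 0, beside 41.4% of all probes, with a median of -0.28 that equalled the median of all probes, and with the further loess 14 were above 0, beside 60%. Timp3 was past the cut-off, 1 of 22 members beside 6.65% of all probes (6.22% in this direction). Timp3 binds to the matrix, and besides MMPs it inhibits Adam17, Adam10 and the aggrecanases. Its ratio was 0.21, -0.05, -1.28 and -0.35 in FLT-Sham and -1.60, -3.32 and -3.39 in FLT-Surgery. The latter 2 values were not above background, and no array of one group reached the other. The difference of -2.40 on the log2 scale (SE 0.59, limma, adjusted p = 0.136), whose size is uncertain with 2 of 3 FLT-Surgery values at background, was -1.79 with the further loess, -0.76 with normexp and loess, -2.99 without FLT-Surgery replicate 1 (adjusted p = 0.0408 in limma) and -2.71 without FLT-Sham replicate 8 (adjusted p = 0.0143 in limma). Of all probes 13% passed the cut-off without FLT-Surgery replicate 1 and 26.2% without FLT-Sham replicate 8. Timp3 was not past the cut-off without FLT-Surgery replicate 3 or replicate 5, nor with slide as a block (-2.23). Its difference within the 2 slides was -3.57 and -1.04.

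Mmp2, the gelatinase of mesenchymal cells, was -0.06, -0.17, -0.58 and -0.65 in FLT-Sham and -0.85, -1.83 and -2.18 in FLT-Surgery. The arrays did not overlap and the difference of -1.26 (SE 0.43, limma, adjusted p = 0.16) did not pass. It did without FLT-Surgery replicate 1 (-1.64, limma, adjusted p = 0.0586), as did 13% of all probes. With the further loess the difference of Mmp2 was -0.39. Timp4 was above background on 3 of 4 FLT-Sham arrays, at 1.30, 2.58 and 2.08, with -1.11 on replicate 8, and on no FLT-Surgery array. From the Cy5 channel it was at least 2.04-fold higher in FLT-Sham (adjusted p = 0.233 in limma). A bound of this kind takes the brighter group's mean over a floor for the dimmer group, namely each array's dimmest signal that still cleared background, or the probe's own signal if higher, and is open to dye bias. With 1 array left out the bound ran from 1.58-fold to 3.21-fold, the latter without FLT-Sham replicate 8. Without that array the log2 difference of -2.73 passed the cut-off (limma, adjusted p = 0.0196), as did 26.2% of all probes. The difference was -1.96 (SE 0.93) with all arrays. Adam10 differed by -1.92 (SE 1.04) and Mmp13 by -1.75 (SE 1.56). With normexp and loess the sign of the Adam10 difference turned. Among members above 0, Mmp24 differed by 1.05 (SE 0.43, limma, adjusted p = 0.194) with no overlap, and by 1.96 (adjusted p = 0.152) with the further loess, which passed the cut-off, as did 6.23% of all probes. Adam6b, a gene within the immunoglobulin heavy-chain locus, differed by 0.71 (SE 0.64) and Adam12 by 0.70 (SE 0.41). Timp1 and Timp2 were both 0.62 higher (SE 0.37 and 0.32). FLT-Surgery arrays stood at 0.75, 0.76 and 0.52 for Timp2 and every one lay above the FLT-Sham arrays (-0.15 to 0.29). The second probe of Timp2 went the other way (-0.40, SE 0.33). Of 22 members, 3 were higher and 2 lower with no overlap, beside 4.06% and 10.6% of all probes. Several marker lists were lower in FLT-Surgery at the same time. The median difference was -5.55 for 3 erythroid markers (3 below 0, all past the cut-off), -2.94 for 8 skeletal muscle markers (7 below 0), -2.53 for 7 neutrophil markers (6 below 0), -2.33 for 5 fibroblast markers (5 below 0), -1.24 for 3 chondrocyte markers (3 below 0) and -4.88 for 4 adipocyte markers (4 below 0). Osteoclast markers had a median of -0.91 (2 of 3 below 0) and osteoblast and osteocyte markers of -1.01 (2 of 4 below 0). Macrophage markers (2 of 2 above 0, median 0.51) and endothelial markers (2 of 3 above 0, median 0.43) lay the other way. The mean log2 ratio over the muscle list ran from 6.47 to 8.86 on FLT-Sham and from 4.22 to 7.30 on FLT-Surgery arrays, and that over the neutrophil list from 4.27 to 5.75 and from 2.03 to 4.24. Over the erythroid list it ran from 2.68 to 4.94 and from 0.13 to 1.74. For fibroblast markers it ran from -0.17 to 1.58 and from -2.74 to 0.53, and for adipocyte markers from 3.63 to 5.66 and from -0.80 to 2.45. Their part in the result was not tested.

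The first spaceflight comparison, FLT-Sham vs. G-Sham, held no member past the cut-off among 23 tested, beside 2% of all probes, while limma gave 1 member an unadjusted p within 0.05, beside 9.57% of all probes. Of the 23, 15 were above 0, beside 61.1% of all probes (10 with the further loess, beside 44.9%). No member's groups were free of overlap, beside 3.64% of all probes higher and 0.957% lower. The members had a median difference of 0.22 beside 0.24 for all probes. The largest positive differences were those of Adam10 (1.76, SE 0.81, limma, adjusted p = 0.517), Timp4 (1.34, SE 0.91), Timp3 (1.19, SE 0.77) and Mmp23 (1.19, SE 0.89). Adam10 was at -1.20, -1.16 and -1.66 on 3 FLT-Sham arrays and -4.02 on replicate 8, where it was below background. Without that array the difference was 2.43 (SE 0.65, limma, adjusted p = 0.0814) and passed the cut-off. This made 1 of 22 members, beside 2071 of 19415 probes. Adam10 was above background on 1 of 4 G-Sham arrays, so that the size of its difference is uncertain. With normexp and loess the sign of the Adam10 difference over all arrays turned. The largest negative differences were those of Mmp24 (-2.14, SE 1.33), Adam12 (-1.48, SE 0.65, limma, adjusted p = 0.514) and Adam6b (-0.85, SE 0.65). The value of Mmp24 rested on G-Sham replicate 5, at 7.38 against 0.89 to 1.74 on the other G-Sham arrays, and the difference was -0.60 without it. Adam12, an ADAM of muscle and bone precursors, was 4.12 on G-Sham replicate 4 and 1.05 to 2.08 on the others, against 0.15 to 1.15 in FLT-Sham. Timp1 differed by -0.38 (SE 0.32) and Mmp2 by 0.73 (SE 0.42). Most marker lists were higher in FLT-Sham. Medians were 3.05 for adipocyte (4 of 4 above 0) and 2.75 for erythroid markers (3 of 3). They were 1.93 for osteoblast and osteocyte (3 of 4), 1.88 for osteoclast (2 of 3) and 1.79 for neutrophil markers (5 of 7). Chondrocyte markers were at 1.35 (3 of 3), fibroblast 1.23 (5 of 5), muscle 0.55 (5 of 8), macrophage 0.1 (2 of 2) and endothelial -0.15 (1 of 3). Their part in the result was not tested.

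In the second spaceflight comparison, FLT-Surgery vs. G-Surgery, 20 of 23 members were lower in FLT-Surgery and none passed the cut-off, beside 3.14% of all probes, while limma gave 3 members an unadjusted p within 0.05, beside 16.4% of all probes. Of all probes 37.8% were above 0, against 3 of 23 members, and with the further loess 65.5%, against 8 of 23. The median difference was -0.75 beside -0.20 for all probes, and -0.15 beside 0.29 with the further loess. Timp3 was -1.94, -0.53, -1.03 and -1.18 in G-Surgery, and the 3 FLT-Surgery values given above included 1 inside this range. The difference was -1.60 (SE 0.53, limma, adjusted p = 0.28). It passed the cut-off with slide as a block (-1.71, adjusted p = 0.0777) and without FLT-Surgery replicate 1 (-2.19, adjusted p = 0.0276). Adam10 was -1.68, -5.00 and -5.10 in FLT-Surgery, above background on replicate 1 alone, with a difference of -2.41 (SE 0.85, limma, adjusted p = 0.28). It likewise passed with slide as a block (-2.59, adjusted p = 0.0759) and without FLT-Surgery replicate 1 (-3.53, adjusted p = 0.0131). Without that replicate Adam9 (-2.27 beside -1.44 with all arrays) and Adamts2 (-1.69 beside -0.90) passed as well, which made 4 of 22 members beside 12.7% of all probes. With normexp and loess the sign of the Adam9 difference over all arrays turned. In both Timp3 and Adam10 the replicate that lay within the G-Surgery range was the FLT-Surgery array on the second slide, and on that slide the 1 FLT-Surgery array was 1.07 and 1.03 below the 1 G-Surgery array for Timp3 and Adam10. On the first slide, with 2 FLT-Surgery and 3 G-Surgery arrays, the differences were -1.98 and -3.24.

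Mmp14 was above background on 3 of 4 G-Surgery arrays and on no FLT-Surgery array, at least 1.91-fold higher in G-Surgery (adjusted p = 0.425 in limma), and its log2 difference was -1.95 (SE 1.22). With 1 array left out the bound ran from 1.41-fold to 3.64-fold, the latter without G-Surgery replicate 5. Without that array the difference of -3.05 passed the cut-off (limma, adjusted p = 0.211), as did 4.63% of all probes. Timp1 was 0.37, 0.40 and 0.01 in FLT-Surgery, with a log2 difference of -0.75 (SE 0.34, limma, adjusted p = 0.316). Timp2 differed by -0.61 (SE 0.34) and Mmp2 by -0.81 (SE 0.41). Adam6b was the only member with all FLT-Surgery arrays below all G-Surgery arrays (-1.13, SE 0.38, limma, adjusted p = 0.28), beside 7.54% of all probes. Its ratios were 1.35, 2.18 and 1.84 against 3.63, 2.41, 2.60 and 3.03. Adam11, an ADAM without a working catalytic site that is known from neurons, was the only member with all FLT-Surgery arrays above all G-Surgery arrays, beside 6.02% of all probes. Its difference was 0.51 (SE 0.25), and its second probe went the other way (-0.33, SE 0.26). The others above 0 were Mmp24 at 0.11 (SE 0.40) and Mmp11 at 0.02 (SE 0.34). Skeletal muscle markers were lower in FLT-Surgery as well (7 of 7 tested, median -2.04, mean log2 ratio over the list 4.22 to 7.30 on FLT-Surgery and 6.08 to 7.95 on G-Surgery arrays), as were fibroblast markers (4 of 4, median -1.57, -2.74 to 0.53 and -0.49 to 1.62). Chondrocyte markers differed most (3 of 3 lower, median -3.50, -0.04 to 0.98 and 1.74 to 3.48). Medians were also below 0 for neutrophil (-1.88), erythroid (-1.96), adipocyte (-1.96), osteoclast (-0.90), osteoblast and osteocyte (-0.66), macrophage (-0.33) and endothelial (-0.06) markers. Their part in the result was not tested.

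**Figure D4:**
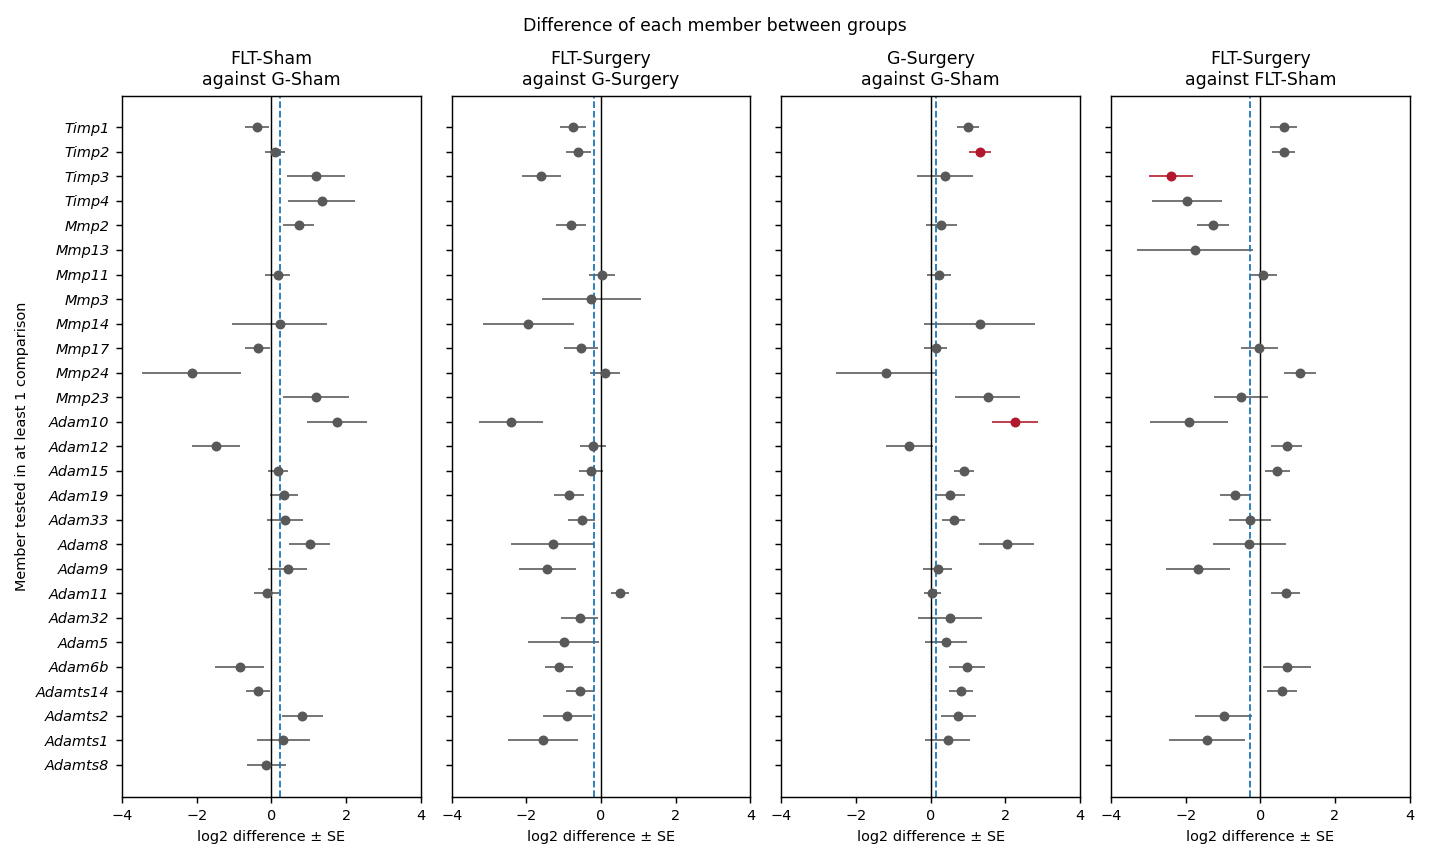
Log2 difference with its standard error of each member tested, in the 4 comparisons of 2 groups, with members past the cut-off in red, 0 as a solid line and the median of all probes tested as a dashed blue line. Most points lie right of 0 in G-Surgery vs. G-Sham and left of 0 in FLT-Surgery vs. G-Surgery. The comparisons share arrays and are not independent of each other.

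Whether the spaceflight difference itself differed between operated and unoperated femora was tested as an interaction over all 15 arrays. Adam10 passed the cut-off, 1 of 29 members tested beside 5.33% of all probes (4.97% in this direction). Its spaceflight difference was lower in operated than in unoperated femora by an interaction of -4.17 on the log2 scale (SE 1.26, limma, adjusted p = 0.172). This value was -2.69 with the further loess, and it passed the cut-off with 8 of 15 arrays left out in turn. The call was lost without G-Sham replicate 1, FLT-Sham replicate 4, 6 or 9, G-Surgery replicate 3, or FLT-Surgery replicate 3 or 5. It was -4.84 (adjusted p = 0.0356 in limma) without FLT-Sham replicate 8, where 17.5% of all probes passed, and -5.29 (adjusted p = 0.0338 in limma) without FLT-Surgery replicate 1. In the latter case 5 of 28 members passed, beside 10.3% of all probes, namely Adam10, Timp3 (-3.38), Adam9 (-2.70, beside -1.87 with all arrays), Adamts2 (-2.52, beside -1.73) and Mmp2 (-1.92). With normexp and loess the interaction of Adam10 was 0.00, its FLT-Surgery vs. G-Surgery difference was -0.01, and the sign of the Adam9 interaction turned. Timp3 (-2.80, SE 1.02, limma, adjusted p = 0.198), Mmp13 (-2.45, SE 1.90) and Mmp2 (-1.54, SE 0.60, limma, adjusted p = 0.21) lay in the same direction as Adam10 with all arrays and did not pass. With the further loess these 3 were -1.99, -1.15 and -0.39. In the other direction the largest were Mmp24 (2.25, SE 1.59), Adam12 (1.27, SE 0.81) and Adam26b (1.15, SE 1.31). Of the 29 members 6 were above 0, beside 39.2% of all probes, with a median of -0.70 beside -0.37 for all probes, and with the further loess 15 were above 0, beside 62.6%, with a median of 0.10 beside 0.49. Marker lists were below 0 in the interaction too, with medians of -4.31 for adipocyte (4 of 4 below 0), -4.25 for erythroid (3 of 3), -4.24 for chondrocyte (4 of 4), -2.78 for fibroblast (5 of 5), -2.55 for osteoclast (4 of 4), -2.41 for muscle (7 of 8), -2.34 for osteoblast and osteocyte (4 of 4), -2.00 for neutrophil (6 of 7), -1.09 for macrophage (5 of 5) and -0.29 for endothelial markers (2 of 3). Their part in the result was not tested.

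Mmp13 and Mmp3, whose promoters are shown above, were each high on a few arrays across groups. Mmp13, the collagenase of hypertrophic cartilage and osteoblasts, was above background at 2.14 and 2.07 on FLT-Sham replicates 4 and 6, at 0.05 on G-Surgery replicate 3 and at 0.55 on FLT-Surgery replicate 1. On the other 11 arrays it ran from -3.68 to -0.55 and was below background. Mmp3, the stromelysin induced by inflammatory signals, was above background at -2.83 and -0.59 on G-Surgery replicates 1 and 3 and at -1.26 on FLT-Surgery replicate 1, and it was below background at -6.52 to -4.44 elsewhere. Its lowest values, -6.52 and -6.45, lay on FLT-Sham replicates 4 and 6, where Mmp13 was highest. Of the 7 operated arrays, the 2 with the highest values of both genes were the same, G-Surgery replicate 3 and FLT-Surgery replicate 1, the only operated arrays on the second slide. Among operated arrays their slide and these values cannot be told apart. On the sham arrays of that slide, G-Sham replicates 1 and 5 and FLT-Sham replicates 6, 8 and 9, Mmp3 was below background at -6.45 to -4.82. Mmp13 was above background there on FLT-Sham replicate 6 alone. FLT-Sham replicate 4 and G-Surgery replicate 1, named above, lay on the first slide. The part of the slide was not tested.

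**Figure D5:**
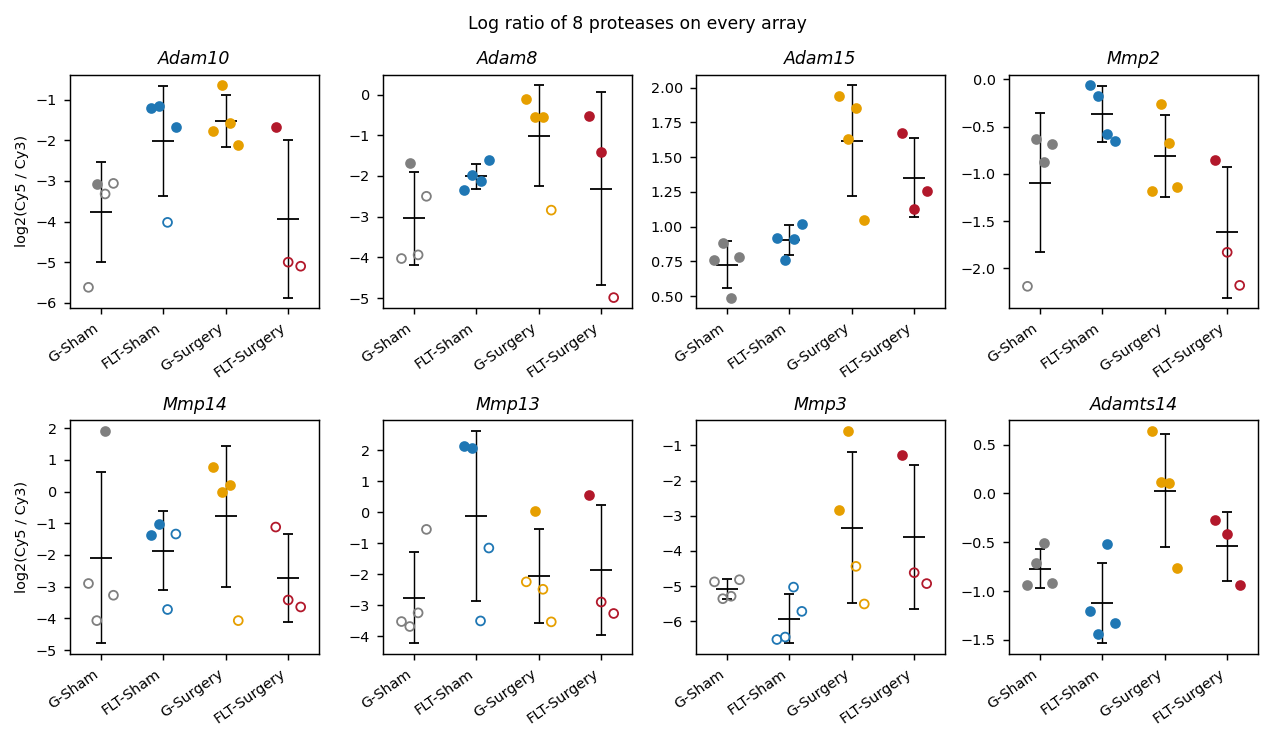
Log2 ratio of 8 proteases on every array by group, filled where above background in Cy5 and open where not, with the mean and SD of each group in black, each panel on its own axis. Adam10 separates G-Sham from G-Surgery, and Mmp13 and Mmp3 are high on 1 or 2 arrays of some groups.

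Genes outside the family that switch these proteases on or off were tested as well. Of 19 activators, receptors and further inhibitors on the array, 9 to 12 were tested in each comparison. With all arrays none passed in the 4 comparisons of 2 groups, beside 2% to 6.65% of all probes. Counts this small cannot be set apart from those shares. In the interaction Furin, the convertase that activates membrane-type MMPs and many ADAMs, passed (-4.37, SE 1.37, limma, adjusted p = 0.176), as did 5.33% of all probes. Its call was lost with the further loess (-2.78), with slide as a block (-4.19) and with 10 of 15 arrays left out in turn. The mean ratio of Furin was -1.80 in G-Sham, 0.10 in FLT-Sham, 0.48 in G-Surgery and -1.99 in FLT-Surgery. The median difference of this list was 0.43 in G-Surgery vs. G-Sham (8 of 9 higher) and -0.62 in FLT-Surgery vs. G-Surgery (7 of 9 lower). Of 7 ADAMTS-like genes, which lack the protease domain, 3 were tested in each comparison. Adamtsl5 fell past the cut-off in FLT-Sham vs. G-Sham (-1.57, SE 0.38, limma, adjusted p = 0.41), where 2% of all probes passed it. This call was lost with the further loess (-2.30) and with slide as a block (-1.61). With the further loess another of them, Papln, passed in G-Surgery vs. G-Sham (-3.00), FLT-Surgery vs. G-Surgery (3.24) and the interaction (4.86), and Adamtsl5 passed in the interaction (2.87). In that setting 2.31%, 7.19% and 4.12% of all probes passed, in the same order.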

How the data were processed

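RNA of 15 femora was hybridised in Cy5 against Universal Mouse Reference RNA in Cy3 on 2-colour Agilent arrays, 1 mouse per array, so that the number of arrays limits precision. The study calls this RNA sub-optimal in quality, possibly worsened by freezing and thawing, and comparable between flown and ground mice. The part of RNA quality in these results was not tested. The authors deposited scanner intensity values with a log10 ratio of Cy5 to Cy3 per spot (Agilent Feature Extraction 12.0 per the labels), background-subtracted and dye-normalized. They also deposited a series table of the same arrays, which holds log10 ratios within 0.005 of those. The deposited log10 ratio was converted to log2 and spots of 1 probe were averaged. An exact 0 there means that neither channel was significant. Control spots were left out. Probes were named through RefSeq accessions, and 28026 of 55681 matched 1 symbol. Mmp27 had no probe here. A probe entered a comparison if its Cy5 signal was flagged well above background on 3 or more of the arrays compared. Tests used limma 3.58.1 in R 4.3.3, on the groups compared or on all 15 arrays for the interaction, with Benjamini-Hochberg adjustment over all probes tested, after a check on simulated data. Members named are those past the cut-off and those with the largest differences, with the TIMPs, collagenases and gelatinase. The members and lists were chosen with earlier results of these data known. Alternatives were a further loess, normexp (offset 50) on median signals, since no mean signals were used here, median centring, Cy5 alone, other filters, the series table, slide and replicate blocks, array weights, other probe rules and leaving out each array. Settings for ratios listed as 0 were added after seeing the data.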

Additional observations from a re-analysis of the deposited data

Results flagged for a closer look

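Among 78 groups of 4 arrays searched over 25 members and the detection counts, 8 had 1 array far from the other 3, where chance alone would give about 3.9. In G-Sham, replicate 1 was low for Adam10 (-5.62, others -3.32 to -3.06) and for Mmp2 (-2.19, others -0.87 to -0.63). Replicate 5 of that group was high for Mmp13 (-0.55, others -3.68 to -3.24) and for Mmp24 (7.38, others 0.89 to 1.74). In FLT-Sham, replicate 8 was low for Mmp14 (-3.72, others -1.36 to -1.03). In G-Surgery, replicate 5 was low for Mmp14 (-4.07, others -0.01 to 0.76) and Adam8 (-2.84, others -0.55 to -0.10), and replicate 4 was low for Adam19 (-1.66, others -0.45 to -0.27).

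The spaceflight difference of Adam10 differed between operated and unoperated femora by -4.17 log2 units in the interaction test (limma, adjusted p = 0.172). It was 0.00 with normexp and loess and passed the cut-off with 8 of 15 arrays left out in turn, and Adam10 was not above background on 3 of 4 G-Sham and 2 of 3 FLT-Surgery arrays.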

How the results depend on the processing

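Of 49 member differences printed, 38 kept their direction under every alternative run. With normexp the sign turned for Adam10 (-0.01) and Mmp24 (0.02) in FLT-Sham vs. G-Sham, Mmp24 (0.00), Mmp2 (0.01) and Adam9 (0.27) in FLT-Surgery vs. G-Surgery, Adam12 (0.21) and Mmp24 (0.18) in G-Surgery vs. G-Sham, Adam10 (0.33) in FLT-Surgery vs. FLT-Sham and Mmp24 (-0.02) and Adam9 (0.51) in the interaction. With slide as a block it turned for Adam12 in G-Surgery vs. G-Sham (0.14). The cause was not tested. Leaving out 1 array gave -0.94 to 0.08 for Adam12 and -1.83 to 0.34 for Mmp24 in G-Surgery vs. G-Sham, and -0.20 to 0.26 for Mmp24 and -0.20 to 0.16 for Mmp11 in FLT-Surgery vs. G-Surgery.

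Counts of members past the cut-off were small and moved. In FLT-Sham vs. G-Sham (0) the count was 1 with array weights (23.8% of all probes) and 0 to 1 with 1 array left out. In FLT-Surgery vs. G-Surgery (0) it was 2 with the slide block (7.8% of all probes), 3 with array weights (12.2%) and 0 to 4 with 1 array left out. In G-Surgery vs. G-Sham (2) it was 1 with normexp, without a filter on dim probes, with both channels above background, with the slide block, with the mean of a member's probes, with a fit over all 15 arrays and with the replicate block, 3 with array weights (3.92% of all probes), and 1 to 6 with 1 array left out. In FLT-Surgery vs. FLT-Sham (1) it was 2 with the further loess, 0 with normexp, with both channels above background or with the slide block, 8 with array weights (48.5% of all probes) and 0 to 2 with 1 array left out. In the interaction (1) it was 0 with normexp or both channels above background, 6 with array weights (29.3% of all probes) and 0 to 5 with 1 array left out. Members detected per array had a median of 21, and 44 where a positive and significant Cy5 signal sufficed.

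Replicate numbers did not pair the arrays: same-numbered arrays correlated at -0.36 to 0.24 in FLT-Surgery vs. G-Surgery and at -0.16 to 0.35 in G-Surgery vs. G-Sham. With the replicate block the counts were 0 and 1. No paired analysis was possible in FLT-Sham vs. G-Sham or FLT-Surgery vs. FLT-Sham because these groups share fewer than 2 numbers. Many members lie near background, where the ratio depends on the background correction.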
